A study of Mus musculus with 8 samples.

Results

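The p53 and Bcl2 family genes of programmed cell death were followed in whole testis of wild-type and Iqch mutant mice. The 9 genes were chosen by their role, with earlier results of these data known. They were Trp53, Mdm2 and Cdkn1a of the p53 loop, the pro-death genes Bax and Bak1, and the pro-survival genes Bcl2, Bcl2l1, Bcl2l2 and Mcl1. Of these, 8 had a row among the 17127 genes of the expression table, and Bcl2 was not analysed here. All 8 passed the minimum on low values, in wild-type as well as in mutant libraries.

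p53, the product of Trp53, is a transcription factor that is stabilised by DNA damage and other stress. It switches on Cdkn1a, which halts the cell cycle, and Mdm2, whose product marks p53 for breakdown and so closes a feedback loop. It also acts on genes of the mitochondrial death pathway. There, Bax and Bak1 proteins open the outer mitochondrial membrane, the Bcl2-like proteins hold them in check, BH3-only proteins release that check, and the cytochrome c set free starts a cascade of caspases, the proteases that dismantle the cell. In testis this pathway removes surplus and damaged germ cells, and balanced Bax and Bcl2-like activity is needed for spermatogenesis.

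RNA-seq was done on testes of separate males aged 4 months. The mutants carried a deletion in both copies of Iqch, a gene expressed mainly in the testis, which was made by CRISPR-Cas9 in zygotes of C57BL/6 and CBA parentage and is given as Iqch-/- in the labels. The deletion is in all cells of the animal, not in germ cells alone, and the labels do not say which of the study's edited lines a mouse came from. Controls were wild-type mice (WT), whose strain is not stated beyond that. The labels list 4 samples of each genotype, and 7 libraries were analysed: wild type 1 to 4 and mutants 1, 2 and 4. Mutant 3 is not analysed here.

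Values are CPM, which give a gene's share of its library scaled to 1000000 reads. Depth, read from the step between CPM values, ran from 32064384 to 37551057 reads per library, so that 1 read was worth 0.0266 to 0.0312 CPM. The member with the fewest reads in a library was Bax with 261, and counting error was therefore small. Iqch itself, the check of the labels, lay between 193 and 217 CPM in wild-type and between 64.8 and 69.2 CPM in mutant libraries. Genotypes were compared with limma on log2(CPM + 0.1) over 17126 genes, and a gene was called at a Benjamini-Hochberg false discovery rate (FDR) below 0.01. Changes were widespread: 50.4% of all tested genes were called, 36.3% as higher and 14.2% as lower in the mutant, and in 62.3% no mutant library overlapped with a wild-type library. Over all genes the log2 fold change had a median of 0.12, and dividing CPM by median-of-ratios size factors brought it to -0.01. After this scaling 27.0% of tested genes were called higher and 25.1% lower. Each change is therefore read against 0.12, and values after scaling are given where they matter.

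Marker RNA of several cell types differed between the genotypes, and whole-testis RNA cannot tell fewer cells of a type from less RNA per cell. Of 8 spermatid markers 7 were called lower, and their summed level was 19120 to 20241 CPM in wild-type and 12368 to 14160 CPM in mutant libraries. Of 8 Leydig cell markers 7 were called higher, with sums of 1057 to 1268 and 4425 to 4581 CPM. All 8 macrophage markers were called higher (2 of them reached the minimum on low values in mutant libraries alone), with sums of 68.1 to 75.9 and 170 to 201 CPM, as were all 7 Sertoli cell markers, with sums of 440 to 485 and 804 to 840 CPM. Spermatogonial markers were called higher in 4 of 7, with sums of 117 to 129 and 167 to 196 CPM. Of these only Kit, which rose from a mean of 21.7 to 62.2 CPM, was called after scaling. Spermatocyte markers were called higher in 1 of 8, with 1 lower and sums of 1137 to 1188 and 1091 to 1179 CPM. After scaling 2 spermatocyte markers were called lower and none higher. On that scale 8 spermatid markers were called lower, and 7 Leydig cell, 8 macrophage and 6 Sertoli cell markers higher. Peritubular myoid markers split into 1 higher and 1 lower of 5, with sums of 346 to 419 and 286 to 326 CPM. Most of that sum was the lower gene, Actg2, with means of 299 CPM in the wild type and 221 CPM in the mutants. Des, the higher gene, had means of 4.57 and 7.01 CPM, and 3 markers were not called. Endothelial markers were called higher in 2 of 6, with sums of 34.7 to 39.9 and 48.7 to 52.2 CPM. Lymphocyte markers are not described here, as 6 of the 7 had no row. No marker with a row was at 0 in any library. The part of these differences in the changes of the death genes was not tested.

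p53 binds DNA as a tetramer, and its consensus is made of paired half-sites of 10 bases. The RefSeq promoters of the listed genes, from 250 bases before to 50 bases after each start site, were searched on both strands for an exact match to the p53 half-site consensus, because 3 of the listed genes are textbook p53 targets. All 9 genes were found in the promoter set, with 12 start sites. A match was present at 4 of the 12 (33.3%), those of Trp53, Mdm2, Bax and Cdkn1a, against 8.36% of the 32851 promoters of the set. Stretches of 30 bases around the matches are shown 5′ to 3′ on the strand of the gene, with the half-site in capitals, in the GRCm38.p6 coordinates of that set. The Trp53 match began 75 bases upstream of the start site, at chr11:69580274-69580303 on the plus strand. The Mdm2 match began 186 bases upstream, at chr10:117710925-117710954 on the minus strand, and the Bax match 201 bases upstream, at chr7:45467080-45467109 on the minus strand. Cdkn1a held 2 matches on the plus strand, beginning 73 and 51 bases upstream, at chr17:29090896-29090925 and chr17:29090918-29090947. These are matches of letters and say nothing of binding in these testes. Known p53 targets are among the chosen genes, so their higher share is no finding of these data.
Trp53: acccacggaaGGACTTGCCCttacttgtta
Mdm2: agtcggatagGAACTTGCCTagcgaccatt
Bax: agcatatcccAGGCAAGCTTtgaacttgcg
Cdkn1a, first: tcctgggtggGGACTAGCTTtctggccttc
Cdkn1a, second: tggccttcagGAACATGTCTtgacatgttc

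Of the 8 members, 6 were called higher and none lower in Iqch mutant testes, where 36.3% of all tested genes were called higher. Trp53, Cdkn1a, Bax, Bak1, Bcl2l2 and Mcl1 rose, with mean levels 1.24 to 1.90 times those of the wild type. Mdm2 and Bcl2l1 were not called. The median log2 fold change of the 8 was 0.48, and 0.35 after scaling. The 6 that rose did so in every mutant library, where 62.3% of all tested genes had no overlap between the genotypes, in either direction. The direction and the call of each of the 6 held under all 14 alternatives, among them scaling and the omission of any 1 library.

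**Figure D1:**
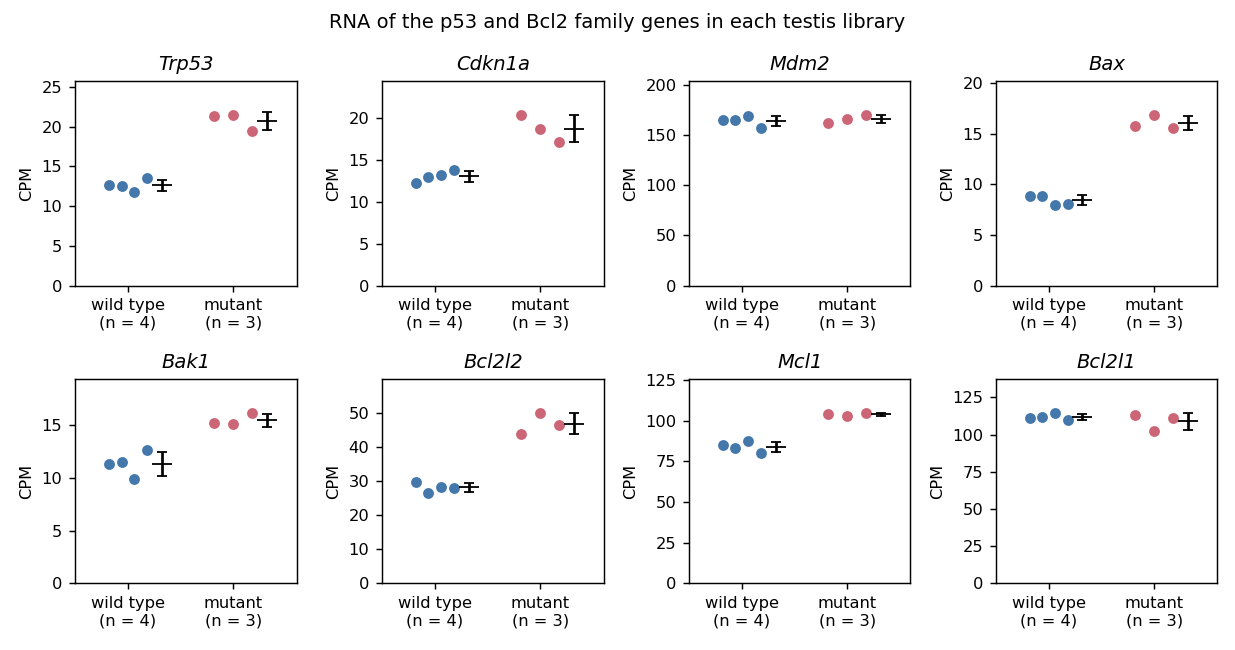
CPM of the 8 members in each of 4 wild-type (blue) and 3 Iqch mutant (red) libraries, 1 panel a gene with its own axis from 0; the black mark and bar beside the points give the mean and SD. The mutant points of Trp53, Cdkn1a, Bax, Bak1, Bcl2l2 and Mcl1 sit above every wild-type point, and those of Mdm2 and Bcl2l1 overlap with them. In 62.3% of all tested genes the genotypes did not overlap, in either direction.

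Trp53 (ENSMUSG00000059552, chromosome 11 from 69469669 to 69482701, plus strand, GRCm39) was at 12.7, 12.5, 11.8 and 13.5 CPM in wild type 1 to 4 and at 21.4, 21.5 and 19.5 CPM in mutants 1, 2 and 4. Every mutant library lay above every wild-type library. Its log2 fold change was 0.71 (standard error, SE, 0.07, FDR 4.0e-06 by limma), and 0.58 after scaling. Trp53 shares 263 exon bases with Wrap53, a gene on the opposite strand. Wrap53 itself rose from 6.84 ± 0.30 CPM (SD, n = 4) to 9.66 ± 0.66 CPM (SD, n = 3). The strand setting of the counting is not given in the sources used here, and reads of the shared stretch cannot be told apart.

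Cdkn1a (ENSMUSG00000023067, chromosome 17 from 29309936 to 29319701, plus strand), the p21 inhibitor of cyclin-dependent kinases, was at 12.2, 12.9, 13.2 and 13.8 CPM in the wild-type libraries. In mutants 1, 2 and 4 it was at 20.3, 18.6 and 17.1 CPM. The groups did not overlap, and mutant 1 was the highest library. The log2 fold change was 0.52 (SE 0.08, FDR 1.1e-04 by limma), and 0.38 after scaling. Mdm2 (ENSMUSG00000020184, chromosome 10 from 117524780 to 117546730, minus strand), the ubiquitin ligase of p53, stood at 165, 164, 169 and 157 CPM in the wild type and 161, 166 and 170 CPM in the mutants. Its groups overlapped throughout. The log2 fold change of Mdm2 was 0.02 (SE 0.04, FDR 0.74 by limma), and -0.12 after scaling (SE 0.04, FDR 0.026 by limma), not called on either scale.

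Bax (ENSMUSG00000003873, chromosome 7 from 45111015 to 45116325, minus strand) had the largest change of the 8 members. It was at 8.86, 8.80, 7.94 and 8.10 CPM in wild type 1 to 4 and at 15.7, 16.8 and 15.6 CPM in the mutants. The lowest mutant library was far above the highest wild-type library. Its log2 fold change was 0.92 (SE 0.08, FDR 8.5e-07 by limma), and 0.79 after scaling. Bak1 (ENSMUSG00000057789, chromosome 17 from 27238784 to 27247983, minus strand), the other pore-forming protein, was at 11.2, 11.5, 9.89 and 12.6 CPM in the wild type. It was at 15.1, 15.0 and 16.1 CPM in the mutants, above all wild-type values but nearer to them than Bax. The log2 fold change of Bak1 was 0.45 (SE 0.09, FDR 7.4e-04 by limma), and 0.32 after scaling. Bak1 shares 437 exon bases with Ggnbp1 on the opposite strand, which was at 9.19 ± 0.95 and 9.80 ± 0.44 CPM and was not called.

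Of the pro-survival genes, Bcl2l2 (ENSMUSG00000089682, chromosome 14 from 55120778 to 55126551, plus strand), which encodes Bcl-w and is required for sperm production in mice, changed most. It was at 29.8, 26.5, 28.2 and 27.9 CPM in wild type 1 to 4. In the mutants it was at 43.8, 49.9 and 46.3 CPM, again with no overlap. The log2 fold change was 0.73 (SE 0.06, FDR 7.3e-07 by limma), and 0.60 after scaling. In the annotation Bcl2l2 shares 594 exon bases with Gm20521 on the same strand, so that its reads are uncertain to that extent.

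Mcl1 (ENSMUSG00000038612, chromosome 3 from 95566026 to 95570487, plus strand), a short-lived pro-survival protein, was at 85.1, 83.2, 87.6 and 80.4 CPM in the wild type and at 104, 103 and 105 CPM in the mutants. The 3 mutants were close together and above all wild-type libraries. The log2 fold change of Mcl1 was 0.31 (SE 0.04, FDR 6.3e-05 by limma), and 0.17 after scaling (FDR 0.0053 by limma). Bcl2l1 (ENSMUSG00000007659, chromosome 2 from 152622582 to 152673655, minus strand), which encodes Bcl-xL, was at 111, 112, 115 and 110 CPM in the wild type. The mutants were at 113, 103 and 111 CPM, with mutant 2 below that range and the others within it. Its log2 fold change was -0.04 (SE 0.05, FDR 0.49 by limma). After scaling it was -0.17 (SE 0.05, FDR 0.0080 by limma), a call as lower that the deposited CPM did not give.

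**Figure D2:**
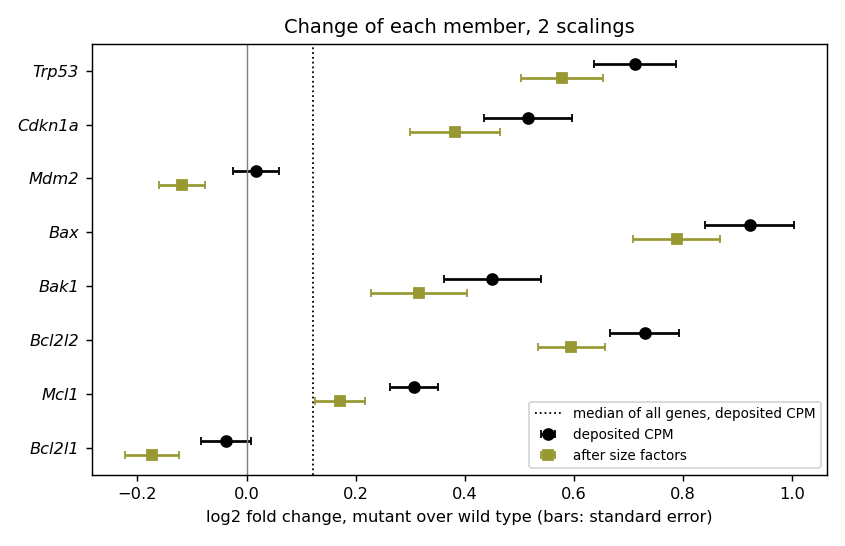
Log2 fold change of each member, mutant over wild type, with its standard error, on the deposited CPM (circles) and after median-of-ratios size factors (squares); the dotted line is the median of all tested genes on the deposited CPM, 0.12. Scaling moves all genes to the left by about the same amount, after which 6 members lie above 0 and Mdm2 and Bcl2l1 below it.

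Taken gene by gene, an exact two-sided permutation test over the 35 ways to divide the libraries into 4 and 3 gave p = 0.029 for each of the 6 members that rose, the smallest value this design allows. The same exact permutation test gave p = 0.57 for Mdm2 and p = 0.46 for Bcl2l1. The limma p-values rest on the spread between these mice, adjusted by that of all tested genes. Those of the permutation test rest on the ways to divide the libraries.

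Levels of different genes were compared per kilobase of merged exon length. In the wild type Mcl1 was highest, at 24.1 ± 0.87 CPM per kilobase (SD, n = 4), followed by Bcl2l1 at 21.8 ± 0.41 and Mdm2 at 21.2 ± 0.66, whose ranges overlapped. Then came Bcl2l2 at 5.20 ± 0.26, Bak1 at 4.70 ± 0.46 and Bax at 4.54 ± 0.25 CPM per kilobase, of which Bak1 overlapped with both others. Cdkn1a at 2.15 ± 0.11 and Trp53 at 1.71 ± 0.09 CPM per kilobase were lowest and did not overlap with each other. In the mutants Bax, at 8.64 ± 0.36 CPM per kilobase (SD, n = 3), reached the level of Bcl2l2 at 8.65 ± 0.57 and stood above Bak1 at 6.41 ± 0.25, with no overlap between Bax and Bak1. The order depends on the length used: per kilobase of the longest transcript, Mdm2 led with 48.4 and Bax, at 7.66, stood above Bcl2l2 at 6.35 CPM per kilobase in the wild type.

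The pro-death genes were set against the pro-survival genes within each library, where a factor between samples cancels out. The mean log2(CPM + 0.1) of Bax and Bak1 lay below that of Bcl2l1, Bcl2l2 and Mcl1 by a difference of -2.70, -2.63, -2.88 and -2.62 in wild type 1 to 4 and of -2.37, -2.34 and -2.35 in mutants 1, 2 and 4. The gap was narrower in the mutants, by 0.35 on the log2 scale. The sign of the score is that of CPM without a correction for gene length, and it does not rank the genes by abundance. No p-value is given for this score over chosen genes.

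The gap narrowed unevenly across the pairs. The ratio of Bax to Bcl2l1 was 0.0797, 0.0787, 0.0693 and 0.0739 in the wild type and 0.139, 0.164 and 0.140 in the mutants, a mean 1.96 times higher. The ratio of Bax to Mcl1 was 0.0907 to 0.106 in the wild type and 0.149 to 0.164 in the mutants, 1.54 times higher, and that of Bak1 to Bcl2l1 0.0863 to 0.115 and 0.134 to 0.147, 1.40 times higher. Bax to Bcl2l2 rose least of the ratios without overlap, from a mean of 0.300 to 0.344, with 0.332 in wild type 2 just under the lowest mutant at 0.336. Bak1 to Bcl2l2 went the other way, from 0.350 to 0.452 in the wild type to 0.301 to 0.348 in the mutants, since Bcl2l2 rose more than Bak1. Bak1 to Mcl1 overlapped between the genotypes.

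**Figure D3:**
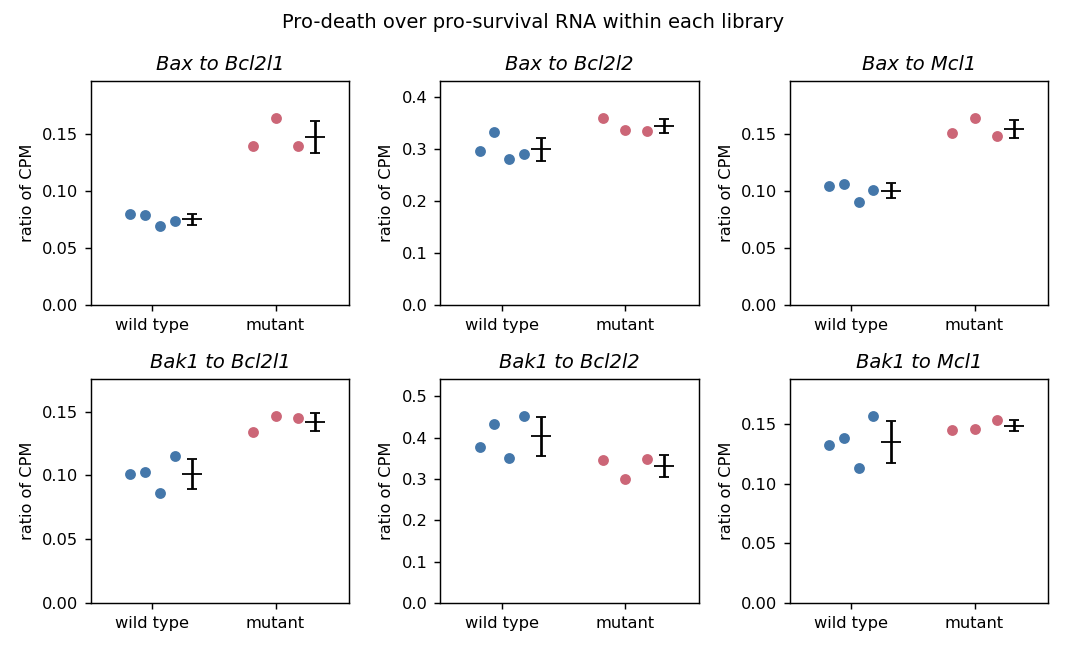
Ratio of the CPM of a pro-death gene to that of a pro-survival gene within each library, 1 panel a pair, wild type in blue and mutant in red, with the mean and SD in black beside the points. All ratios of Bax and that of Bak1 to Bcl2l1 are higher in all 3 mutants, Bak1 to Bcl2l2 is lower, and Bak1 to Mcl1 overlaps.

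The other genes of the pathway were taken from lists by role, 120 genes in all besides the members, of which 96 had a row. Of the 96, 56 were called higher and 6 lower, where 36.3% and 14.2% of all tested genes were. The lists were chosen with earlier results of these data known, so the counts describe the lists and test nothing. After scaling 38 and 11 were called, where 27.0% and 25.1% of all tested genes were, and the counts of each list are to be read against the same shares. The median log2 fold change of the 96 was 0.36, against 0.12 for all tested genes. The minimum on low values was reached in mutant libraries alone by 2 of the 96, which had to be higher there to be tested. Without them 54 of 94 were called higher.

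**Figure D4:**
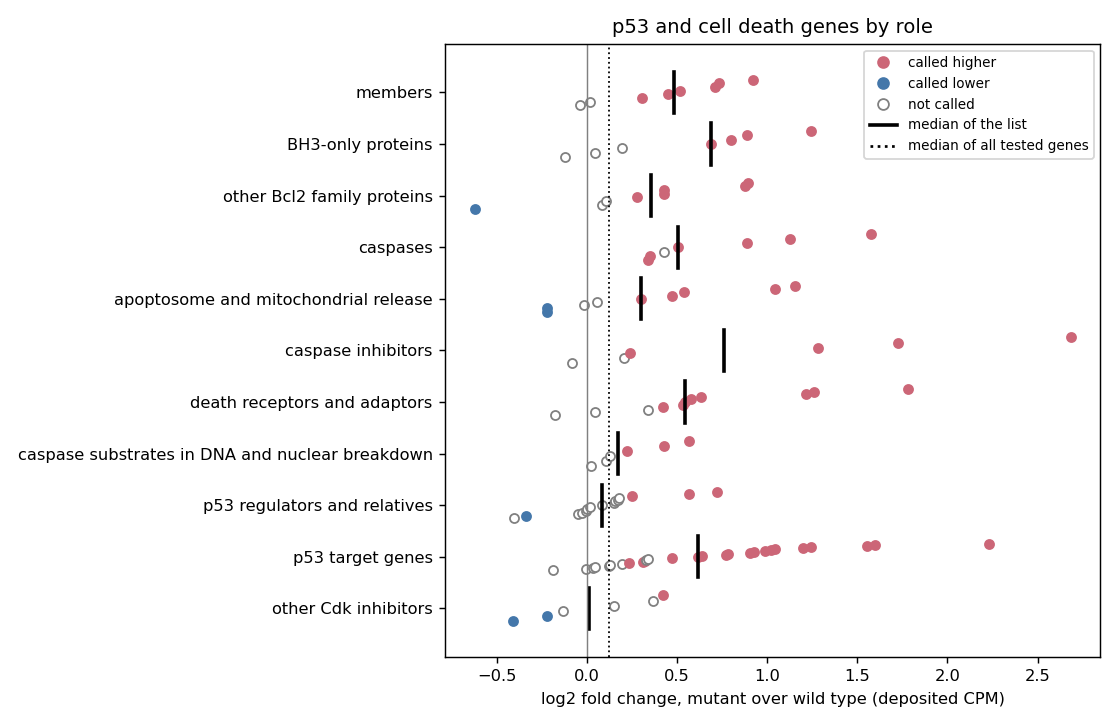
Log2 fold change of each gene of the p53 and cell death lists on the deposited CPM, 1 row a list, with genes called higher in red, called lower in blue and not called in white; the thick bar is the median of a list and the dotted line the median of all tested genes, 0.12. Farthest to the right lie the medians of listed caspase inhibitors (0.76, or 0.24 without the sensor Naip5), BH3-only proteins (0.69) and p53 target genes (0.62). That of the other Cdk inhibitors is at 0.01.

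BH3-only proteins sense damage and engage the Bcl2-like proteins. Of 7 with a row, 4 were called higher and none lower on both scales, with a median log2 fold change of 0.69. Bbc3, which encodes the p53-induced protein Puma, was at 2.96, 4.28, 2.50 and 3.60 CPM in the wild type and 9.51, 7.05 and 7.28 CPM in the mutants. For Bbc3 the log2 fold change was 1.24 (SE 0.18, FDR 5.2e-05 by limma). Bik changed by 0.89 (SE 0.15, FDR 2.7e-04 by limma), and Bid, which links death receptors to mitochondria, by 0.80 (SE 0.12, FDR 9.2e-05 by limma). Bid shares 3059 exon bases with Bcl2l13 on the opposite strand, which changed by 0.28, so its value is uncertain. Bmf changed by 0.69 (SE 0.15, FDR 0.0014 by limma), but lost its call with mutant 1 left out, at 0.58 (FDR 0.0102 by limma).

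The other BH3-only genes overlapped between the genotypes. Bcl2l11, the gene of Bim, was at 31.5 to 40.7 CPM in the wild type and 29.8 to 37.5 CPM in the mutants, a log2 fold change of -0.12 (SE 0.10, FDR 0.28 by limma). Pmaip1, the p53 target Noxa, was at 2.40 to 3.41 and 3.13 to 3.74 CPM, a log2 fold change of 0.19 (SE 0.15, FDR 0.29 by limma). Bad was at 37.7 to 41.8 and 39.0 to 42.6 CPM, a log2 fold change of 0.04 that turned to -0.09 after scaling.

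Among 8 further Bcl2 family genes and Bnip genes with a row, 5 were called higher and 1 lower, with a median log2 fold change of 0.35. Bok, a relative of Bax and Bak1, was at 6.70, 5.36, 6.42 and 5.25 CPM in the wild type and 10.7, 11.9 and 10.1 CPM in the mutants, a log2 fold change of 0.87 (SE 0.11, FDR 2.5e-05 by limma). Bnip3, a mitochondrial protein of the hypoxia response and mitophagy, changed by 0.89 (SE 0.11, FDR 1.7e-05 by limma). Bcl2l14 was the lower gene and the most abundant of the list in CPM. It was at 468, 483, 468 and 465 CPM in the wild type and at 326, 291 and 303 CPM in the mutants, a log2 fold change of -0.62 (SE 0.04, FDR 1.2e-07 by limma), in the direction of the spermatid markers.

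Caspases were called higher in 6 of the 7 with a row, and in 3 of 7 after scaling. Of the 7, 1 reached the minimum on low values in mutant libraries alone, and without it 5 of 6 were called, and 2 of 6 after scaling. Casp8, the initiator caspase of death receptors, was at 2.87, 2.45, 2.43 and 2.50 CPM in the wild type and 7.36, 8.39 and 7.74 CPM in the mutants. Its log2 fold change was the largest of the caspases with a row, at 1.57 (SE 0.12, FDR 2.4e-07 by limma). Casp6, an executioner caspase, was at 8.32, 7.78, 8.16 and 8.18 CPM and at 14.2, 16.2 and 14.9 CPM, a log2 fold change of 0.89 (SE 0.08, FDR 1.3e-06 by limma). Both were called on both scales.

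Casp9, Casp1 and Casp2 changed less. Casp9, the initiator of the mitochondrial pathway, changed by 0.35 (SE 0.08, FDR 0.0017 by limma) and was not called after scaling, at 0.22 (FDR 0.027 by limma). Casp1, the inflammatory caspase, changed by 0.50 (SE 0.13, FDR 0.0046 by limma), and after scaling by 0.37 without a call (FDR 0.023 by limma). Casp2 changed by 0.34 (SE 0.10, FDR 0.0098 by limma), and after scaling by 0.20 (FDR 0.080 by limma). The Casp1 call was lost without wild type 1 or 3 or any 1 mutant, at 0.46 to 0.52, and that of Casp2 without wild type 1, 3 or 4 or any 1 mutant, at 0.27 to 0.39.

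**Figure D5:**
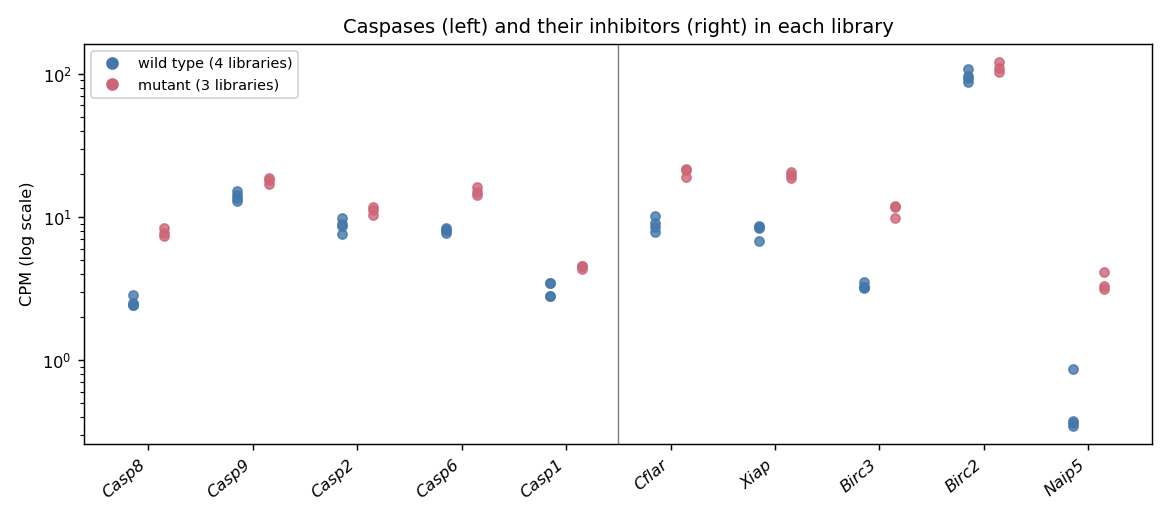
CPM on a log axis of 5 caspases (left of the line) and of Cflar, Xiap, Birc3, Birc2 and Naip5 (right) in each library. Wild type is in blue and mutant in red, 1 point a library. Naip5 was listed with the inhibitor-of-apoptosis genes but is a sensor of flagellin. The mutant points of Casp8, Casp6, Cflar, Xiap, Birc3 and Naip5 stand clear of the wild type. Those of Casp9, Casp2 and Casp1 also lie above every wild-type point, though nearer to it, and those of Birc2 overlap with the wild type.

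Of 6 inhibitor-of-apoptosis genes with a row, 4 were called higher and none lower, with a median log2 fold change of 0.76, and after scaling 3 higher and 1 lower. Naip5 reached the minimum on low values in mutant libraries alone, and without it 3 of 5 were called higher, with a median of 0.24. Birc2 was not called, and neither was Birc5, at 46.8 to 50.6 CPM in the wild type and 45.9 to 46.9 CPM in the mutants, which was the gene called lower after scaling, at -0.22. Xiap, a direct inhibitor of caspases, was at 8.62, 8.39, 8.52 and 6.76 CPM in the wild type and 18.8, 19.6 and 20.8 CPM in the mutants, a log2 fold change of 1.28 (SE 0.10, FDR 2.3e-07 by limma). Birc3 was at 3.50, 3.17, 3.26 and 3.22 CPM and at 9.80, 11.7 and 12.0 CPM, a log2 fold change of 1.73 (SE 0.11, FDR 5.4e-08 by limma). Naip5, a sensor of bacterial flagellin of macrophages, was at 0.868, 0.379, 0.365 and 0.346 CPM and at 3.28, 3.12 and 4.12 CPM. As it was tested for being high in the mutants, its values are a description. Naip5 has near-identical neighbours, and its reads could be divided among them. The ratio of Casp9 to Xiap was 1.50 to 2.24 in the wild type and 0.812 to 0.991 in the mutants, with no overlap.

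In the death receptor list 8 of 11 genes with a row were called higher and none lower, with a median log2 fold change of 0.54, and 6 higher and none lower after scaling. Tnfrsf1a, the main receptor of tumour necrosis factor, was at 13.0, 12.4, 14.4 and 12.4 CPM in the wild type and 46.0, 41.7 and 47.5 CPM in the mutants. Its log2 fold change was 1.78 (SE 0.08, FDR 2.2e-09 by limma). Its adaptor Tradd changed by 1.26 (SE 0.18, FDR 6.4e-05 by limma), the kinase Ripk1 by 0.63 (SE 0.09, FDR 4.0e-05 by limma), and Fadd, which recruits Casp8, by 0.58 (SE 0.11, FDR 5.3e-04 by limma). Cflar, the decoy that blocks Casp8, changed by 1.22 (SE 0.09, FDR 3.0e-07 by limma), and the ratio of Casp8 to Cflar was 0.241 to 0.319 in the wild type and 0.358 to 0.394 in the mutants. Ripk3, the kinase of necroptosis, changed by 0.53 (FDR 0.0056 by limma), and by 0.40 after scaling without a call (FDR 0.025 by limma). Its call was also lost without wild type 2 or 3 or any 1 mutant, at 0.44 to 0.55. All 8 macrophage markers rose in the same libraries, and macrophages are known to express Tnfrsf1a, Naip5 and Birc3; their part in these values was not tested.

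Of 9 genes of the apoptosome and of mitochondrial release, 5 were called higher and 2 lower, and after scaling 3 and 2, with a median log2 fold change of 0.30. Vdac1, a channel of the outer mitochondrial membrane, rose from 27.3 ± 1.59 CPM (SD, n = 4) to 60.8 ± 2.00 CPM (SD, n = 3), 1.15 on the log2 scale (SE 0.06, FDR 1.1e-08 by limma). Aifm1, a mitochondrial flavoprotein that can move to the nucleus in dying cells, went up from 11.4 ± 0.61 to 23.7 ± 0.89 CPM, 1.04 on the log2 scale (SE 0.07, FDR 1.1e-07 by limma). Apaf1, the scaffold of the apoptosome, changed by 0.54 (SE 0.12, FDR 0.0018 by limma), and without mutant 2 by 0.46 with no call (FDR 0.012 by limma). The 2 lower genes, named after their values were seen, were Cyct, the testis form of cytochrome c, and Vdac2, which holds Bak1 at the mitochondrion. Cyct fell by 0.22 on the log2 scale (FDR 0.0020 by limma), and without mutant 1 or mutant 2 it was not called, at -0.21 and -0.20. Vdac2 also fell by 0.22 (FDR 4.2e-04 by limma).

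Of 6 caspase substrates of DNA and nuclear breakdown, 3 were called higher and none lower, and 1 after scaling, with a median log2 fold change of 0.17. Gsn, the actin-severing protein gelsolin, went up from 84.4 ± 12.2 to 124 ± 3.39 CPM, 0.57 on the log2 scale (SE 0.09, FDR 1.6e-04 by limma).

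The wider p53 network divided into regulators and targets. Of 15 regulators and relatives of p53 with a row, 3 were called higher and 1 lower, and after scaling 1 and 3, with a median log2 fold change of 0.08. Trp53bp2, a p53-binding protein that favours cell death genes, changed by 0.56 (SE 0.08, FDR 4.3e-05 by limma). Ppp1r13l, its inhibitory relative iASPP, was the lower gene and is named after its value was seen; it fell by 0.34 on the log2 scale (FDR 2.5e-04 by limma). Chek2, a DNA damage kinase, changed by 0.72 (FDR 0.0057 by limma) and was not called after scaling, at 0.59, nor without wild type 1 or 3 or mutant 2 or 4, at 0.57 to 0.72.

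Of 27 p53 target genes with a row besides the members, 18 were called higher and none lower, and after scaling 14 and 1, with a median log2 fold change of 0.62. Phlda3, an inhibitor of Akt signalling, was at 2.66, 2.36, 2.10 and 2.05 CPM in the wild type and 11.3, 11.6 and 10.3 CPM in the mutants, a log2 fold change of 2.23 (SE 0.13, FDR 2.1e-08 by limma). Fdxr, a mitochondrial reductase that also serves steroid synthesis, was at 38.2, 34.5, 37.6 and 36.9 CPM and at 106, 103 and 116 CPM, a log2 fold change of 1.56 (SE 0.06, FDR 9.1e-10 by limma). Fdxr rose beside the Leydig cell markers, whose sum rose in all 3 mutants, and their part in its value was not tested. Ccng1, the cyclin G1 gene, changed by 1.20 (SE 0.10, FDR 4.4e-07 by limma), Ei24 by 1.05 (SE 0.06, FDR 3.7e-08 by limma), Tigar, which lowers glycolytic flux, by 0.92 (SE 0.07, FDR 2.1e-07 by limma), and Sesn1, of the sestrin family, by 0.78 (SE 0.06, FDR 4.4e-07 by limma). Of the 27 tested targets 20 were found in the promoter set, with 27 start sites. Of these sites 12 (44.4%) held an exact p53 half-site, against 8.36% of all promoters. The list was made of known p53 targets, so this excess is no finding of these data. Of the 11 genes with a match 6 were called higher, and of the 9 without one 8, Phlda3, Fdxr, Tigar and Bbc3 among them. Only the promoter stretches were searched, and only for exact half-sites. A p53 site elsewhere in a gene, or one with an inexact match, would not have been found. Whether p53 acted on the genes with or without a match was not tested. Of the other motifs searched on both strands, the GC box GGGCGG was present at 77.8% of these start sites against 35.7% of all promoters. The CCAAT box stood at 59.3% against 37.4%, and the TATA box TATAAA at 3.7% against 13.6%. Mdm2 and Pmaip1 were not called.

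Several named genes share exon bases with another gene of the table on the opposite strand, and their values are uncertain to that extent. Bad shares 914 with Gpr137, which had means of 122 CPM in the wild type and 115 CPM in the mutants. Ei24 shares 359 with Gm26787 and 77 with Fez1, Ccng1 114 with Nudcd2, and Tnfrsf1a 19 with Plekhg6. Gpr137, Gm26787, Fez1, Nudcd2 and Plekhg6 were not called. Sesn1 shares 548 with Cep57l1, which fell by 0.16 on the log2 scale, Ppp1r13l 483 with Polr1g, which changed by 0.52, Ripk1 241 with Serpinb6a, which changed by 0.27, and Vdac2 140 with Comtd1, which changed by 1.04. Of the members, Cdkn1a (504 bases, Dino), Bcl2l1 (476, Gm74855), Mdm2 (348, Gm56970) and Bax (192, Gm45808, same strand) overlap with genes not analysed here.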

How the data were processed

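Per the labels, Trimmomatic, Subread and featureCounts were the tools and GRCm39 the build; the reads came from total RNA of whole testes. The table the authors deposited holds CPM for 7 libraries, after a filter on genes with few reads, and each library sums to 1000000. All values (100%) were whole multiples of 1 step (tolerance 0.001 reads), from which the depth per library was inferred; 0 columns were left without a sample. Annotation release and strand setting are not given in the sources used here.

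limma 3.58.1 in R 4.3.3 (eBayes with trend) was fitted on log2(CPM + 0.1) for genes that reached 2.2 CPM in no fewer than 2 samples of either genotype, the study's read minimum at its depth, with Benjamini-Hochberg adjustment over 17126 genes and calls at an FDR of 0.01. Fold changes on this scale are smaller than those of CPM for low genes. The fit was tested on simulated data in which few genes changed, as many up as down. That test does not cover widespread changes or a shift of the median as in these data. Gene positions and exon lengths came from GENCODE M39 (17045 genes, 99.5%, found). Named genes were the members, Iqch, caspases and BH3-only genes, and per list up to 6 called genes with a log2 fold change beyond 0.5. Members and lists were chosen with earlier results of these data known. Some genes that this rule names are not reported here, though the counts over lists include them.

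Alternatives were pseudocounts of 1 and 0.01, a minimum of 5 CPM or none, size factors by median of ratios, a replicate block, each library left out, and, chosen after seeing the data, limma voom on recovered reads. Python 3.11.15, pandas 2.3.3 and matplotlib 3.10.9 were used.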

Additional observations from a re-analysis of the deposited data

Results flagged for a closer look

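In 59 wild-type groups of 4 values (members, named genes, ratios and the score), 4 had 1 library far from the other 3 by Dixon's criterion, where chance alone would mark about 1 in 20. Xiap was at 6.76 CPM in wild type 4 against 8.39 to 8.62 CPM in the others. Casp8 was at 2.87 CPM in wild type 1 against 2.43 to 2.50 CPM, and Naip5 at 0.868 CPM in wild type 1 against 0.346 to 0.379 CPM. Cdkn1c was at 16.4 CPM in wild type 3 against 17.8 to 17.9 CPM. With each library left out in turn, log2 fold changes ran from 1.20 to 1.32 for Xiap and 1.52 to 1.63 for Casp8. Naip5 reached the minimum on low values in mutant libraries alone.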

How the results depend on the processing

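Of 112 values of the 8 members under 14 alternatives, 106 kept their direction and their side of the threshold. With size factors and with limma voom (added after seeing the data), Bcl2l1 was called lower at -0.17 under both, and Mdm2 turned to -0.12 under both, not called. Bad turned to -0.093 under both. The number of genes called lower over the whole table moved from 2428 to 4294 and 4267, and that of pathway genes called lower from 6 to 11 under both. Both bring the median of all genes from 0.12 to -0.013. Calls as higher fell from 71.9% to 51.9% of all calls with size factors. With single libraries left out, Mdm2 ran from -0.0036 (without wild type 4) to 0.036 and Bcl2l1 from -0.065 to 0.0043 (without mutant 2). Members called stayed at 6 under those settings. Of the values of the named pathway genes under these alternatives, 534 kept theirs, 47 lost their call and 2 (Bad) reversed. Replicate numbers are shared by the labels without a stated pairing: same-numbered libraries deviated with correlations of -0.098 to 0.026, and the replicate block gave 7722 genes and 6 members called and ended the calls of Apaf1, Casp1, Casp2, Cyct and Ripk3. The planned count tests were not run, as the table holds CPM and its filter left 26 to 41 genes a library at 20 or fewer inferred reads, too few to establish the step between values from low genes alone; the printed reads and the voom fit rest on that step. The median standard error over all genes was 0.081 on the log2 scale.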

Other observations

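The other inhibitors of cyclin-dependent kinases were mixed in direction. Of 6 tested, 1 was called higher and 2 lower, with a median log2 fold change of 0.01, and after scaling 3 were lower and none higher. Cdkn2b, the p15 gene, was the higher one, at 5.77 to 7.40 CPM in the wild type and 8.16 to 8.97 CPM in the mutants, a change of 0.42 (FDR 0.0046 by limma) that was not called after scaling, at 0.29, nor without wild type 1 or 2 or mutant 2 or 4, at 0.37 to 0.42. Cdkn1b, the p27 gene, was not called, at 11.3 to 15.5 and 16.0 to 18.6 CPM, although no library overlapped between the genotypes. Cdkn1c, the p57 gene, was at 17.9, 17.8, 16.4 and 17.8 CPM in the wild type and 13.2, 12.9 and 13.2 CPM in the mutants, and fell by 0.41 on the log2 scale (FDR 2.0e-04 by limma). Cdkn2c, the p18 gene, was at 136 to 150 CPM in the wild type and 116 to 128 CPM in the mutants, and fell by 0.22 (FDR 0.0023 by limma); without mutant 1 or mutant 4 it was not called, at -0.20 and -0.19. These 4 are named after their values were seen.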
